A study of Mus musculus with 36 samples.

Results

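Tumour-associated macrophages (TAM) from mice bearing MC38 tumours were compared after OMV-SIRP and after phosphate-buffered saline (PBS), across all genes of 1 deposited table. The comparison used 6 of the 36 RNA sequencing libraries of the series, 3 after OMV-SIRP and 3 after PBS, taken by their labelled tumour model and treatment. MC38 is a mouse colon carcinoma line, and OMV stands in the series title for an engineered outer membrane vesicle, a particle shed from bacterial outer membranes; the labels do not spell out SIRP. All groups were labelled WT in genotype, tumour in tissue and tumour-associated macrophages in cell type. A further 3 MC38 TAM libraries, labelled OMV-SIRP-G, entered the statistical fit and are set beside the comparison where a value is of use. The labels give no dose, schedule, age or sex, and no way of isolating the macrophages. The series design speaks of pooling within each group, and whether the 3 libraries of a group stem from different mice is not said. The p-values therefore rest on the spread among libraries, which may be technical.

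Macrophages of a tumour arise largely from blood monocytes and depend on signals through the Csf1 receptor. They take up dying and antibody-coated cells through scavenger and Fc receptors, break them down in lysosomes, make the C1q chains of complement and can present antigen on MHC class II. The inhibitory receptor Sirpa on macrophages binds Cd47, a surface protein that restrains phagocytosis.

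Values are FPKM, fragments per kilobase of gene length at a common sequencing depth, and were tested with limma on log2(FPKM + 1). A gene is said to rise or fall after OMV-SIRP where its adjusted p (Benjamini-Hochberg over all genes tested) was under 0.05. Log2 changes are OMV-SIRP minus PBS on that scale, with their standard error (SE), n = 3 libraries a group, and they understate changes of genes with low FPKM. Libraries in each group are given in the order 1, 2 and 3.

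The 6 libraries differed in ways that bear on every result below. The OMV-SIRP libraries held 15248383 to 15914848 reads assigned to genes, and the PBS libraries 13491025 to 16737363. Log2 values of all genes tested correlated at 0.82 to 0.93 among the OMV-SIRP libraries and at 0.81 to 0.89 among the PBS libraries. Among the OMV-SIRP-G libraries the correlations were 0.94 to 0.95. These tighter libraries entered the shared estimate of spread, so SE and adjusted p for OMV-SIRP against PBS may be too small. Between OMV-SIRP and PBS libraries the correlations were 0.68 to 0.87, a range that overlaps those within either group. OMV-SIRP 3 correlated at 0.87 with PBS 2 and at 0.82 with OMV-SIRP 2. The libraries labelled OMV-SIRP 2 and PBS 3 stood apart from the others of their groups, with 12818 and 13470 genes detected against 15761 to 21580 in the other 4. Genes encoded in mitochondria took 21.5%, 20.7% and 15.2% of reads in the OMV-SIRP libraries, 6.06% to 6.46% in the OMV-SIRP-G libraries and 3.46%, 2.98% and 5.07% in the PBS libraries.

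The labelled cell type was checked against macrophage markers. The summed FPKM of a macrophage identity list of 18 genes was 2738 to 6898 in the OMV-SIRP libraries, 4510 to 4811 in the OMV-SIRP-G libraries and 536 to 959 in the PBS libraries. Lyz2 alone, with values given below, made up a large part of the OMV-SIRP sums. Adgre1, which encodes the macrophage surface protein F4/80, had 38.6, 69.04 and 24.6 FPKM in the OMV-SIRP libraries, against 1.93, 4.98 and 6.11 FPKM in the PBS libraries. Csf1r, the receptor for the macrophage growth factor Csf1, had 84.8, 109 and 42.7 FPKM in the OMV-SIRP libraries, against 4.91, 7.997 and 7.21 FPKM in the PBS libraries. In PBS libraries of the B16 melanoma model, from another table scaled separately, Csf1r stood at 68.96, 67.5 and 62.95 FPKM. Mertk, Siglec1, Aif1 and Cd163, which also mark macrophages, had no read in any PBS library. Cd163 was too low across the MC38 libraries to be tested, so its absence there does not set the PBS libraries apart. Ptprc, the pan-leukocyte gene CD45, had 23.2, 44.1 and 15.8 FPKM in the OMV-SIRP libraries, against 10.6, 10.8 and 15.7 FPKM in the PBS libraries, and its change did not pass the test (log2 change 1.00 ± 0.33 (SE), adjusted p = 0.0815). The PBS libraries labelled as macrophages thus held leukocyte transcripts but few of the macrophage transcripts. In bulk libraries, fewer cells of a type and less RNA per cell cannot be told apart, and the part of this marker difference in the results below was not tested.

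**Figure D1:**
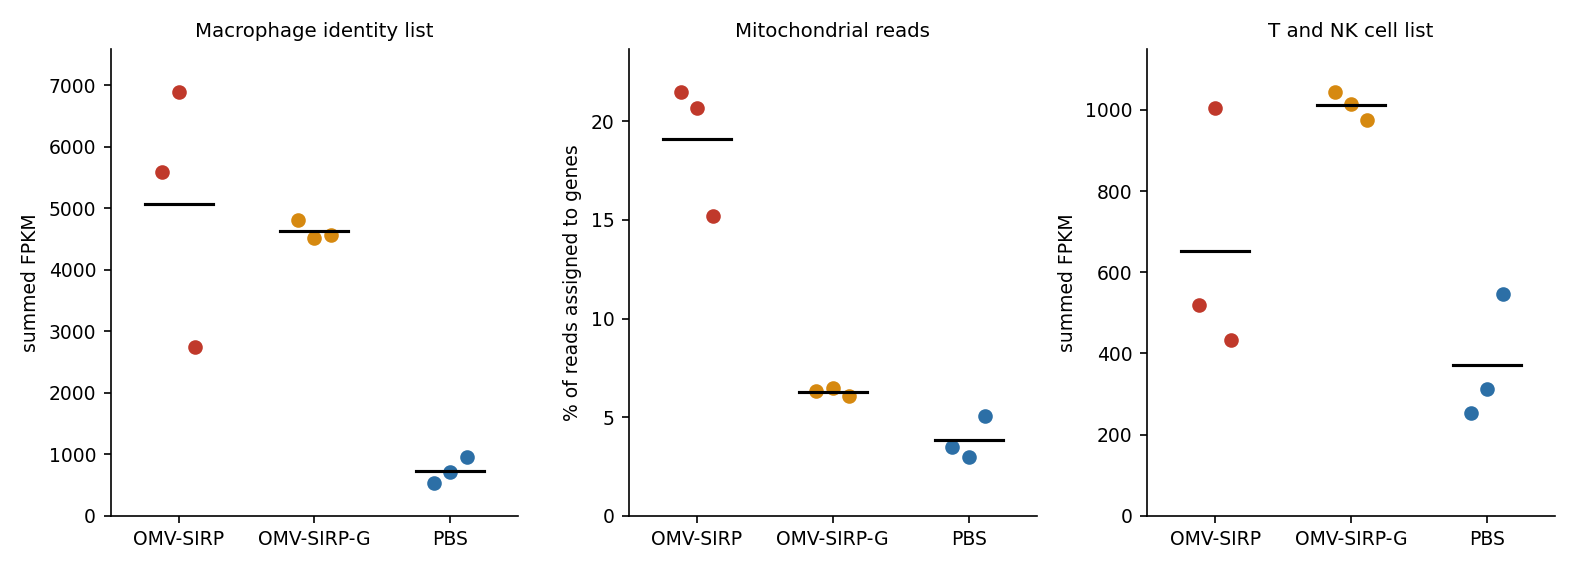
Summed FPKM of the macrophage identity list (left), percent of reads from mitochondrially encoded genes (middle) and summed FPKM of the T and NK cell list (right) in the MC38 TAM libraries, by group; points are libraries 1 to 3 from left to right and lines are means. The macrophage list, with Lyz2 a large part of its OMV-SIRP sums, lay at 2738 to 6898 after OMV-SIRP and at 536 to 959 after PBS. The mitochondrial share was highest in the 3 OMV-SIRP libraries.

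After OMV-SIRP, 1042 of 14089 genes tested rose (7.4%) and 492 fell (3.49%), which makes 1534 past the threshold (10.9%). Groups did not overlap in 2188 genes that were higher (15.5%) and 1808 that were lower (12.8%) after OMV-SIRP. Changes of at least 1 on the log2 scale made up 847 of the higher and 289 of the lower genes. The 5 largest rises among the genes named by rule were those of C1qa, Retnla, Chil3, Mrc1 and C1qb, and the 5 largest falls those of S100a8, Serpinb2, S100a9, Lcn2 and Prl2c2. The split between higher and lower depended on the scaling between libraries. With each library scaled to its total reads, 697 genes were higher and 1635 lower, and the median log2 change of all genes moved to −0.27, from 0.03 as deposited. Scaled to reads other than mitochondrial, 863 genes were higher and 693 lower, and the median was −0.07. With FPKM scaled to the same sum in each library, 572 were higher and 3335 lower and the median was −0.53. On total reads, on the same sum or on both, the rises of Atf3, Ccnb2, Cox4i1, Fcer1g, Fscn1, H2-D1, Irf8, Ldha, Lgals3, Psmb8, Psmb9, Sdha, Tap2, Tlr2 and Tlr7, named below, did not pass.

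**Figure D2:**
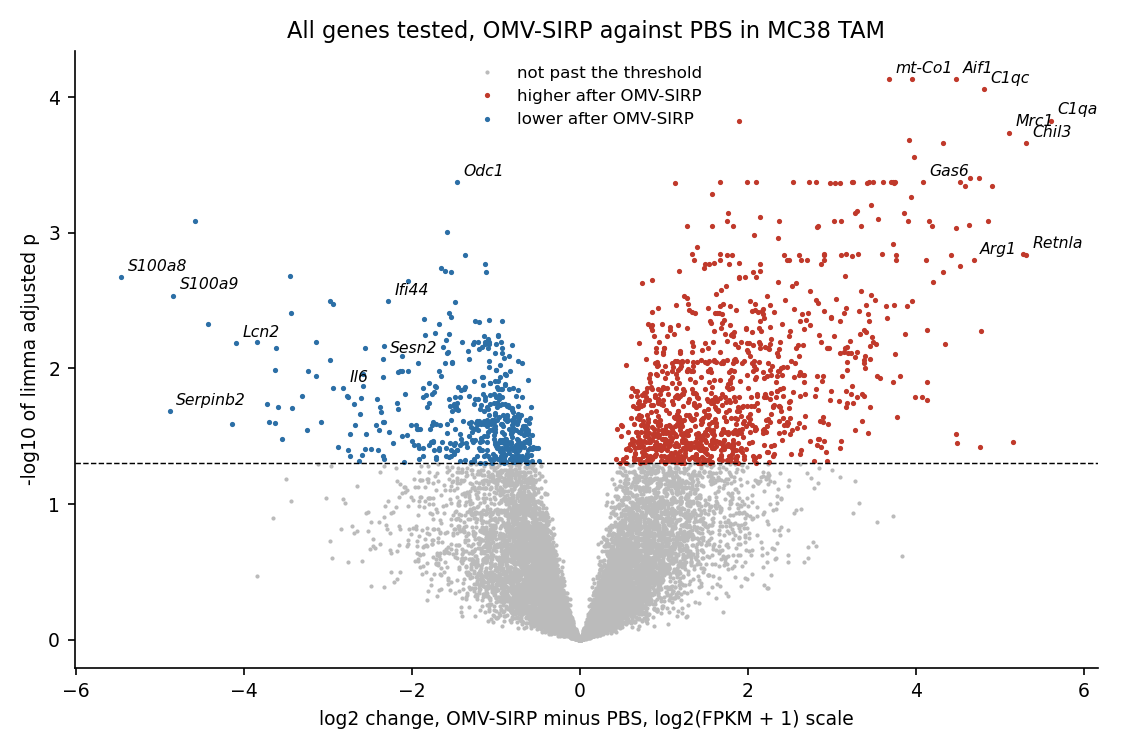
Log2 change (OMV-SIRP minus PBS, x axis) against −log10 of the limma adjusted p (y axis) for all 14089 genes tested; the dashed line is the threshold of 0.05. C1q, alternative activation and macrophage genes lie at the far right, and S100a8, S100a9, Lcn2 and Serpinb2 at the far left.

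Macrophage genes and the C1q chains were higher after OMV-SIRP. Of 16 macrophage identity genes tested, 15 rose, with a median log2 change of 3.19, against 0.03 over all genes tested. The list is the one summed above to check the cell type, so this count restates that marker difference. Of the 16 genes, 3 were at 0 in every PBS library and were tested only through values in the other groups. Lyz2, which encodes lysozyme, had 3264, 3924 and 1055 FPKM in the OMV-SIRP libraries, against 75.6, 90.1 and 175 FPKM in the PBS libraries (log2 change 4.48 ± 0.47 (SE), adjusted p = 0.000929). Mrc1, the mannose receptor of tissue-resident and alternatively activated macrophages, had 60.9, 68.9 and 30.1 FPKM in the OMV-SIRP libraries, against 1.22, 0.288 and 0.151 FPKM in the PBS libraries (log2 change 5.11 ± 0.34 (SE), adjusted p = 0.000183). Neither gene overlapped between the groups. Siglec1, the sialic acid receptor CD169, had 12.004, 18.3 and 8.26 FPKM in the OMV-SIRP libraries, against 0, 0 and 0 FPKM in the PBS libraries, at least 553-fold higher against a floor of 3 reads per PBS library. The phagocytic receptor Mertk, at 0 in every PBS library, had 6.28, 20.1 and 3.03 FPKM after OMV-SIRP, at least 256-fold higher against the same floor. Cd68 rose less (2.90, adjusted p = 0.00145), as did the galectin gene Lgals3 (0.90, adjusted p = 0.0164), which did not pass on total reads (0.51, adjusted p = 0.0972) or on the same sum (0.17, adjusted p = 0.58). Cd14, the co-receptor for bacterial lipopolysaccharide, had 239.6, 316 and 211 FPKM in the OMV-SIRP libraries, against 127, 167 and 225 FPKM in the PBS libraries, and its change did not pass the test (log2 change 0.58 ± 0.22 (SE), adjusted p = 0.119). OMV-SIRP 3 was the lowest of the OMV-SIRP libraries for 15 of the 16 genes and OMV-SIRP 2 the highest for 15.

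C1q is the recognition protein that starts the classical complement pathway, and its A, B and C chains come from neighbouring genes. These were C1qa (ENSMUSG00000036887, chr4:136895917-136898803), C1qb (ENSMUSG00000036905, chr4:136880129-136886187) and C1qc (ENSMUSG00000036896, chr4:136889804-136893065), all on the minus strand (GRCm38). C1qa had 486, 474 and 393 FPKM in the OMV-SIRP libraries, against 4.46, 6.87 and 17.2 FPKM in the PBS libraries (log2 change 5.61 ± 0.36 (SE), adjusted p = 0.000149). C1qb had 658, 547 and 365 FPKM in the OMV-SIRP libraries, against 6.996, 17.5 and 32.7 FPKM in the PBS libraries (log2 change 4.90 ± 0.44 (SE), adjusted p = 0.000455). C1qc had 222, 196 and 175 FPKM in the OMV-SIRP libraries, against 3.48, 6.22 and 9.91 FPKM in the PBS libraries (log2 change 4.81 ± 0.28 (SE), adjusted p = 8.74e-05). The 3 chains lay far apart between the groups in every library, and PBS 3 was the highest PBS library for each. Cfp, which encodes properdin of the alternative pathway, also rose (3.97, adjusted p = 0.000275), as did the anaphylatoxin receptor gene C5ar1 (3.24, adjusted p = 0.0135), whose call was lost without OMV-SIRP 1 (adjusted p = 0.0517). Of 8 complement genes tested 6 rose, and the change of C3 (1.56, adjusted p = 0.0648) did not pass the test. C1qa, C1qb, C1qc and Cfp passed in each of the 17 alternative settings.

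**Figure D3:**
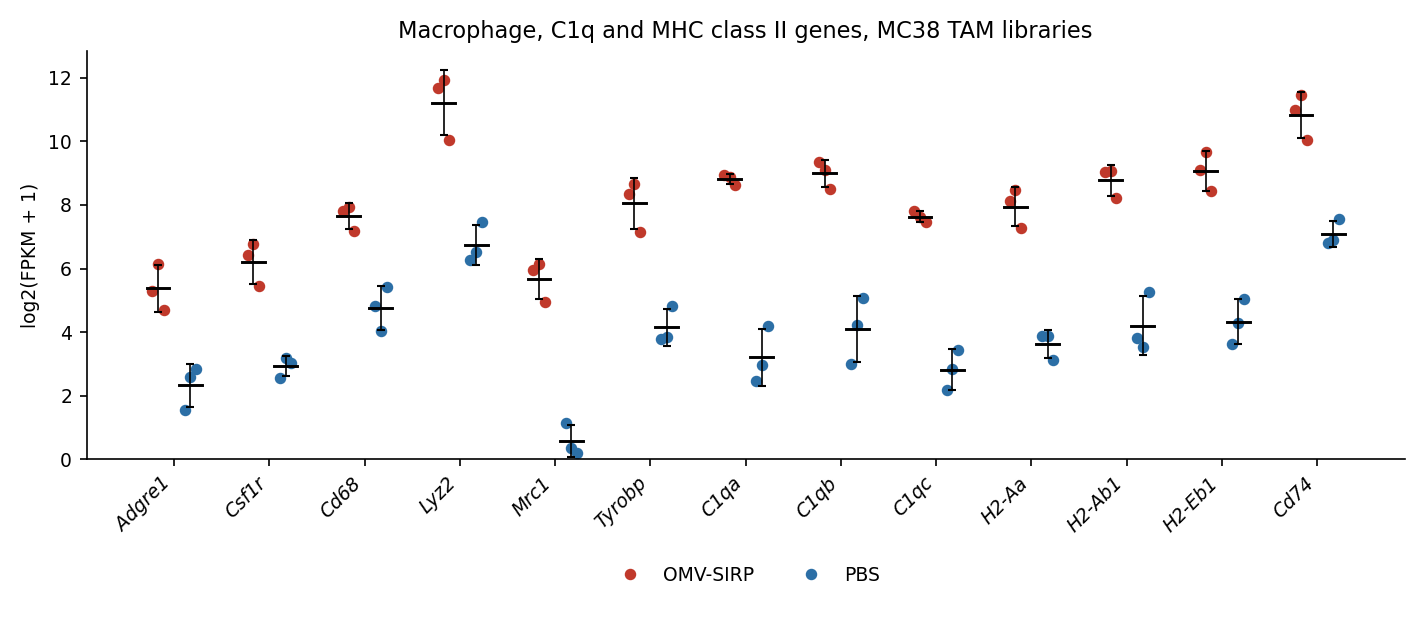
log2(FPKM + 1) of 13 macrophage, C1q and MHC class II genes in the OMV-SIRP (left of each pair) and PBS (right) libraries; points are libraries, bars means and whiskers SD. In all 13 genes the lowest OMV-SIRP library was above the highest PBS library.

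Promoter windows of genes that moved together were read for the motif GAGGAAGT (reverse complement ACTTCCTC) of PU.1, a transcription factor of the myeloid lineage. The motif stood on either strand in 4 of 12 windows of the 15 genes with the highest changes (33.3%), in 1 of 11 windows of the 15 with the lowest, that of S100a8 (9.09%), and in 3.2% of all 32851 windows. It stood in 1 of 11 windows of the macrophage identity list (9.09%) and in 0 of 6 of MHC class II. The windows, from RefSeq on GRCm38.p6, run from 250 bases before a gene's start to 50 after it. Windows of 3 strongly higher genes are shown 5′ to 3′ along the gene, with the motif in capitals; they belong to C1qc, to Pld4 and to Ctss, whose cathepsin S cleaves the invariant chain of MHC class II.
C1qc, chr4:136892865-136893164, minus strand: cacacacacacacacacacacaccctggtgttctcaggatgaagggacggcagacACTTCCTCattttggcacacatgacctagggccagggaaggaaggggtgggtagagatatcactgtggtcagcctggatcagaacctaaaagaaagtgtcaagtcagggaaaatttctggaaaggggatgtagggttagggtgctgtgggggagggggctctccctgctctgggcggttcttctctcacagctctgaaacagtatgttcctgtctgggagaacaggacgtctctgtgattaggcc
Pld4, chr12:112760405-112760704, plus strand: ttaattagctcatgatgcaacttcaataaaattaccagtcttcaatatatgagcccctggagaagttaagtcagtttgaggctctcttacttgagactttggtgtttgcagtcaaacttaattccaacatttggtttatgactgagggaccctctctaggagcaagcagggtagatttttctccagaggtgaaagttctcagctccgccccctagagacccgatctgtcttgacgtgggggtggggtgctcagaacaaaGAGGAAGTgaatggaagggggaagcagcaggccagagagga
Ctss, chr3:95526536-95526835, plus strand: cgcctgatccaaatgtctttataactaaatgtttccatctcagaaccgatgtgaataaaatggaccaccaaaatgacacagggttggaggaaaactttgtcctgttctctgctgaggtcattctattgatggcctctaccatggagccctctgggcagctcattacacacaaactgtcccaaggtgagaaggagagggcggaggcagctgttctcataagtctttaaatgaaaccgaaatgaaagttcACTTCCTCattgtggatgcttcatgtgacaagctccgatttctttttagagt
A match in these letters is a description of the sequence and not evidence that PU.1 bound there.

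MHC class II, which shows peptides to CD4 T cells, rose across its chains and its loading machinery. Of 9 genes tested 7 rose, with a median log2 change of 3.31. The beta chain gene H2-Eb1 had 550.4, 819 and 343 FPKM in the OMV-SIRP libraries, against 11.4, 18.3 and 32.1 FPKM in the PBS libraries (log2 change 4.75 ± 0.37 (SE), adjusted p = 0.000397). The alpha chain gene H2-Aa had 277, 352 and 154 FPKM in the OMV-SIRP libraries, against 13.8, 13.8 and 7.67 FPKM in the PBS libraries (log2 change 4.32 ± 0.31 (SE), adjusted p = 0.000218). Cd74, the invariant chain that guards the groove before loading, had 2028, 2819 and 1048 FPKM in the OMV-SIRP libraries, against 110.5, 119 and 187 FPKM in the PBS libraries (log2 change 3.74 ± 0.33 (SE), adjusted p = 0.000429). The groups were apart in these 3 genes, and H2-Ab1 changed alike (4.58, adjusted p = 0.000455). The peptide exchange genes H2-DMa (3.31, adjusted p = 0.00144) and H2-DMb1 (2.56, adjusted p = 0.00917) rose as well. Ciita, the transactivator that switches class II genes on, stood at 4.99, 6.56 and 3.68 FPKM after OMV-SIRP and 0.432, 0.63 and 0 FPKM after PBS (log2 change 2.17 ± 0.30 (SE), adjusted p = 0.00375). H2-Oa and H2-Ob, which temper peptide exchange, did not pass the test (2.25, adjusted p = 0.061 and 1.32, adjusted p = 0.0618). With any 1 library left out 7 to 9 passed, and 6 with the 6 libraries fitted alone, where Ciita did not (adjusted p = 0.052).

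The Y box is an element of class II promoters bound by the factor NF-Y, and was searched as CTGATTGG (reverse complement CCAATCAG). It stood in 3 of 6 windows of class II genes (50%), in 2 of 11 windows of the 15 lowest genes (18.2%), in 1 of 12 of the 15 highest (8.33%), in 0 of 11 of the macrophage identity list and in 4.1% of all windows. The H2-Eb1 and H2-Aa windows, which both hold the Y box, are shown as examples, with the Y box in capitals. H2-Eb1 was among the 15 highest genes and H2-Aa was not.
H2-Eb1, chr17:34305617-34305916, plus strand: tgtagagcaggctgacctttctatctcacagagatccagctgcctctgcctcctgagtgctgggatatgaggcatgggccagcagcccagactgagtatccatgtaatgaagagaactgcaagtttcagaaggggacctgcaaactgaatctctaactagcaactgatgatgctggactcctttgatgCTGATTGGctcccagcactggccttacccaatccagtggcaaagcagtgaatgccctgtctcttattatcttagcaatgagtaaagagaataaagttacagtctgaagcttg
H2-Aa, chr17:34287774-34288073, minus strand: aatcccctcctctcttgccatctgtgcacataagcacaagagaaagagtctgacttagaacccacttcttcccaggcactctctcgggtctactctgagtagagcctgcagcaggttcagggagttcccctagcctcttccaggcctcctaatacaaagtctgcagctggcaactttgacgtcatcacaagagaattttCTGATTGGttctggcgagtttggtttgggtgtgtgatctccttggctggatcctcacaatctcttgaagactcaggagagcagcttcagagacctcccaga

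Genes of alternative activation, the state driven by interleukin 4, stood among the largest changes. Of 12 genes of arginine metabolism and alternative activation tested, 6 rose and 2 fell, with a median of 1.60. The falls were of Odc1 and of Il10 (-2.73, adjusted p = 0.0445), whose call was lost without OMV-SIRP 1, OMV-SIRP 2, PBS 1, PBS 2 or PBS 3 (adjusted p = 0.0524 to 0.105), which left 1 lower. Arg1, arginase 1, which breaks down arginine, had 951, 1401 and 294 FPKM in the OMV-SIRP libraries, against 20.6, 18.9 and 52.9 FPKM in the PBS libraries (log2 change 4.69 ± 0.55 (SE), adjusted p = 0.0016). Chil3, a chitinase-like secreted protein, had 383, 374 and 142 FPKM in the OMV-SIRP libraries, against 5.65, 4.11 and 8.77 FPKM in the PBS libraries (log2 change 5.31 ± 0.37 (SE), adjusted p = 0.000218). Retnla, a resistin-like protein, was not detected in PBS libraries and had 35.6, 113 and 14.04 FPKM after OMV-SIRP, at least 196-fold higher against a floor of 3 reads per PBS library. Arg1, Chil3 and Retnla were lowest in OMV-SIRP 3, where each was still above every PBS library. The lectin gene Mgl2 (4.53, adjusted p = 0.000423) and the interleukin 4 receptor gene Il4ra (2.14, adjusted p = 0.00444) rose too. Nos2, the nitric oxide synthase that competes with arginase for arginine, had 36.97, 105 and 13.8 FPKM in the OMV-SIRP libraries, against 10.5, 16.2 and 23.2 FPKM in the PBS libraries. The groups overlapped in Nos2, and its change did not pass the test (log2 change 1.21 ± 0.59 (SE), adjusted p = 0.216). Odc1, which makes polyamines from the product of arginase, fell: it had 106, 95.9 and 124 FPKM in the OMV-SIRP libraries, against 295, 296 and 309 FPKM in the PBS libraries (log2 change -1.46 ± 0.13 (SE), adjusted p = 0.000423). Retnlg, a resistin-like gene known from neutrophils rose as well (4.77, adjusted p = 0.00532), with 43.8, 104 and 18.7 FPKM after OMV-SIRP and 0, 3.60 and 0 FPKM after PBS.

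Fc receptors and their signalling adaptors rose together. Of 16 genes for Fc receptors and phagocytosis tested 12 rose, with a median of 2.33; 8 passed without OMV-SIRP 1, 8 without PBS 1, and 6 where the 6 libraries were fitted alone. Fcgr3, an activating receptor for immunoglobulin G, had 258, 418 and 95.6 FPKM in the OMV-SIRP libraries, against 5.23, 13.4 and 17.7 FPKM in the PBS libraries (log2 change 4.20 ± 0.53 (SE), adjusted p = 0.0023). Fcgr2b, the inhibitory receptor, had 94.3, 148 and 39.8 FPKM in the OMV-SIRP libraries, against 3.21, 5.88 and 7.11 FPKM in the PBS libraries (log2 change 3.76 ± 0.43 (SE), adjusted p = 0.00145). The activating receptors Fcgr4 (4.35, adjusted p = 0.00664) and Fcgr1 (3.51, adjusted p = 0.00311) rose too. Tyrobp, the DAP12 adaptor of many myeloid receptors, had 327, 400.5 and 141 FPKM in the OMV-SIRP libraries, against 12.9, 13.3 and 27.2 FPKM in the PBS libraries (log2 change 3.90 ± 0.39 (SE), adjusted p = 0.000815), while Fcer1g, the shared signalling chain of Fc receptors, changed by 1.72, adjusted p = 0.0294, a call that was lost without OMV-SIRP 1, OMV-SIRP 2, PBS 1 or PBS 2 (adjusted p = 0.0635 to 0.0881). The Src family kinase genes Lyn (2.42, adjusted p = 0.00981) and Fgr (2.62, adjusted p = 0.0106) rose as well. Syk, Rac2 and Was did not pass the test, with log2 changes of 0.73, 0.86 and 1.46. OMV-SIRP 2 was the highest and OMV-SIRP 3 the lowest OMV-SIRP library in all 16 genes.

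The inhibitory receptor gene Sirpa had 64.5, 95.1 and 41.1 FPKM in the OMV-SIRP libraries, against 13.3, 10.2 and 22.2 FPKM in the PBS libraries (log2 change 2.06 ± 0.33 (SE), adjusted p = 0.00672), and the groups did not overlap. Its ligand Cd47 had 33.7, 36.9 and 30.4 FPKM in the OMV-SIRP libraries, against 28.2, 26.003 and 27.1 FPKM in the PBS libraries, a change that did not pass the test (log2 change 0.30 ± 0.15 (SE), adjusted p = 0.223). Of 15 genes for SIRP proteins and inhibitory receptors tested 9 rose, with a median of 1.78; leaving out OMV-SIRP 1 or PBS 2 gave 4, leaving out OMV-SIRP 2 or PBS 1 gave 5, and the 6 libraries fitted alone gave 4. Sirpb1c, an activating relative of Sirpa that has near-identical paralogs, had 17.4, 38.3 and 7.10 FPKM in the OMV-SIRP libraries, against 0.127, 0 and 0 FPKM in the PBS libraries (log2 change 4.11 ± 0.48 (SE), adjusted p = 0.0016). Clec4a2 (3.14, adjusted p = 0.00756) and Vsir, which encodes the checkpoint protein VISTA (2.15, adjusted p = 0.00704), rose as well. The checkpoint ligand gene Cd274, which encodes PD-L1, stood at 23.5, 55.02 and 35.9 FPKM after OMV-SIRP and 30.5, 39.2 and 47.2 FPKM after PBS (adjusted p = 0.866).

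Genes of lysosomal proteases and of the handling of lipids and debris were higher after OMV-SIRP. Of 19 lysosome genes tested 15 rose, with a median of 1.35; the count was 8 where the 6 libraries were fitted alone and 9, with 1 lower, where FPKM had the same sum in each library. Ctss had 865, 1220.5 and 429 FPKM in the OMV-SIRP libraries, against 38.3, 41.1 and 74.8 FPKM in the PBS libraries (log2 change 3.94 ± 0.37 (SE), adjusted p = 0.000543). Psap, which encodes activators of lysosomal lipid breakdown, had 1152, 1665 and 689 FPKM in the OMV-SIRP libraries, against 237, 248 and 259.6 FPKM in the PBS libraries (log2 change 2.14 ± 0.26 (SE), adjusted p = 0.00191). Lgmn, the asparaginyl protease legumain, had 242, 216 and 141 FPKM in the OMV-SIRP libraries, against 18.1, 13.8 and 40.2 FPKM in the PBS libraries (log2 change 3.11 ± 0.35 (SE), adjusted p = 0.00145). The membrane protein genes Lamp1 and Lamp2 did not pass the test (adjusted p = 0.0913 and 0.806). Of 13 genes of lipid-associated macrophages tested 9 rose. Apoe, a carrier of cholesterol, had 433, 471 and 406 FPKM in the OMV-SIRP libraries, against 13.05, 7.73 and 54.9 FPKM in the PBS libraries (log2 change 4.52 ± 0.54 (SE), adjusted p = 0.00176). Trem2, a lipid-sensing receptor, had 23.5, 28.8 and 11.3 FPKM in the OMV-SIRP libraries, against 1.23, 0.612 and 0.843 FPKM in the PBS libraries (log2 change 3.47 ± 0.33 (SE), adjusted p = 0.000621). Spp1, osteopontin, changed by 2.95, adjusted p = 0.00704, and Gpnmb, another gene of such macrophages, by -0.97, adjusted p = 0.0516, which did not pass. Of 12 scavenger and efferocytosis receptor genes tested 7 rose, among them Stab1 (3.45, adjusted p = 0.000423), Clec7a (3.76, adjusted p = 0.0016) and Cd36 (2.49, adjusted p = 0.00578). Gas6, a bridge between dying cells and the receptors Mertk and Axl, had 21.4, 12.2 and 17.4 FPKM in the OMV-SIRP libraries, against 0.123, 0 and 0 FPKM in the PBS libraries (log2 change 4.08 ± 0.33 (SE), adjusted p = 0.000423), while Axl itself did not pass the test (adjusted p = 0.143).

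Of 17 chemokine genes tested 9 rose and 1 fell, with a median of 1.13. With FPKM scaled to the same sum 6 rose and 4 fell, with a median of 0.43. Ccl6, a CC chemokine of myeloid cells, had 499, 871 and 155 FPKM in the OMV-SIRP libraries, against 19.7, 11.3 and 48.2 FPKM in the PBS libraries (log2 change 4.13 ± 0.62 (SE), adjusted p = 0.00524). Pf4, platelet factor 4, which macrophages also make, had 158, 141 and 110.4 FPKM in the OMV-SIRP libraries, against 8.89, 4.82 and 11.6 FPKM in the PBS libraries (log2 change 3.92 ± 0.27 (SE), adjusted p = 0.000208). Cxcl9, an attractant of T cells induced by interferon gamma, had 59.9, 68.7 and 21.3 FPKM in the OMV-SIRP libraries, against 1.57, 1.88 and 8.17 FPKM in the PBS libraries (log2 change 3.48 ± 0.54 (SE), adjusted p = 0.00591). Ccl24, which attracts eosinophils, was at 0 in every PBS library and had 13.3, 25.6 and 4.13 FPKM after OMV-SIRP, at least 112-fold higher against a floor of 3 reads. The monocyte attractant gene Ccl12 rose (3.18, adjusted p = 0.0103), whereas Ccl2 did not pass the test (adjusted p = 0.695). Cxcl1, which draws neutrophils, fell: it had 24.6, 73.2 and 112 FPKM in the OMV-SIRP libraries, against 184, 239 and 251 FPKM in the PBS libraries (log2 change -1.90 ± 0.44 (SE), adjusted p = 0.0281). Its call was lost without PBS 1, PBS 2 or PBS 3 (adjusted p = 0.058 to 0.0714). Ccl3 (-1.32, adjusted p = 0.0887), Cxcl2 (-0.65, adjusted p = 0.212) and Cxcl10 (adjusted p = 0.456) did not pass. The receptor gene Ccr2, by which monocytes follow Ccl2 and its relatives, rose (2.94, adjusted p = 0.00704).

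S100a8, S100a9 and Lcn2 were among the genes that fell most. S100a8 and S100a9 form calprotectin, a calcium-binding protein abundant in neutrophils and inflammatory monocytes, and lie close together as S100a8 (ENSMUSG00000056054, chr3:90668978-90670035) and S100a9 (ENSMUSG00000056071, chr3:90692632-90695721). S100a8 had 7.36, 0 and 4.32 FPKM in the OMV-SIRP libraries, against 106, 226 and 155 FPKM in the PBS libraries (log2 change -5.46 ± 0.68 (SE), adjusted p = 0.00212). S100a9 had 7.80, 13.2 and 1.59 FPKM in the OMV-SIRP libraries, against 136, 309 and 176 FPKM in the PBS libraries (log2 change -4.84 ± 0.63 (SE), adjusted p = 0.0029). Lcn2, a protein that withholds bacterial iron, had 1.07, 11.2 and 0.972 FPKM in the OMV-SIRP libraries, against 39.2, 91.97 and 64.7 FPKM in the PBS libraries (log2 change -4.09 ± 0.65 (SE), adjusted p = 0.00648). All 3 genes were lower in every OMV-SIRP library than in any PBS library. Of 11 neutrophil genes tested 2 rose and 5 fell, with a median of 0.10 that turned to −0.28 on total reads and to −0.11 without OMV-SIRP 2. The falls were of S100a8, S100a9, Lcn2 and the granule genes Ngp (-2.68, adjusted p = 0.0259) and Ltf (-1.53, adjusted p = 0.0439), and the rises of Retnlg and the decoy receptor gene Il1r2 (1.93, adjusted p = 0.00907). The lower count was 3 without OMV-SIRP 1, OMV-SIRP 2, PBS 2 or PBS 3: the call of Ngp was lost without OMV-SIRP 1, OMV-SIRP 2, PBS 2 or PBS 3 (adjusted p = 0.0601 to 0.0769), and that of Ltf without OMV-SIRP 1, OMV-SIRP 2, PBS 2 or PBS 3 (adjusted p = 0.083 to 0.11). Of other neutrophil genes, Ly6g and Elane were at 0 in all 6 libraries and Cxcr2 in 5. The neutrophil markers S100a8, S100a9 and Retnlg had reads in both groups. Neutrophil list sums were 111 to 292 FPKM after OMV-SIRP and 358 to 735 FPKM after PBS, but S100a8, S100a9 and Lcn2 make up most of the PBS sums. The other 13 members summed to 104 to 268 FPKM after OMV-SIRP and 76.8 to 111 FPKM after PBS.

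The interleukin genes Il1a, Il1b and Il6 and the cyclooxygenase gene Ptgs2 fell. Il1b had 49.6, 79.9 and 122 FPKM in the OMV-SIRP libraries, against 220.5, 353 and 525 FPKM in the PBS libraries (log2 change -2.12 ± 0.36 (SE), adjusted p = 0.00811). Il1a had 8.97, 21.997 and 43.1 FPKM in the OMV-SIRP libraries, against 90.2, 127 and 183 FPKM in the PBS libraries (log2 change -2.58 ± 0.47 (SE), adjusted p = 0.011). Il6 had 0.549, 2.80 and 8.06 FPKM in the OMV-SIRP libraries, against 18.2, 32.8 and 27.7 FPKM in the PBS libraries (log2 change -2.82 ± 0.54 (SE), adjusted p = 0.014). In each the groups did not overlap, and OMV-SIRP 1 was the lowest library while OMV-SIRP 3 was the nearest to the PBS libraries. Ptgs2, the inducible cyclooxygenase, had 15.1, 29.3 and 107 FPKM in the OMV-SIRP libraries, against 197, 276 and 299 FPKM in the PBS libraries (log2 change -2.76 ± 0.56 (SE), adjusted p = 0.0164), and did not pass with OMV-SIRP 2 and PBS 3 both left out. Il10, an anti-inflammatory cytokine, had 3.05, 0 and 10.7 FPKM in the OMV-SIRP libraries, against 15.9, 20.2 and 37.7 FPKM in the PBS libraries (log2 change -2.73 ± 0.73 (SE), adjusted p = 0.0445); its call was lost without OMV-SIRP 1, OMV-SIRP 2, PBS 1, PBS 2 or PBS 3 (adjusted p = 0.0524 to 0.105). The list of Toll-like receptor and NF-kB response genes moved both ways. Of 22 tested, 4 fell, which were Il1a, Il1b, Il6 and Ptgs2, and 4 rose, which were the receptor genes Cd180 (3.14, adjusted p = 0.00392), Tlr2 (1.46, adjusted p = 0.04) and Tlr7 (1.81, adjusted p = 0.0374) and the interleukin 12 subunit gene Il12b (2.49, adjusted p = 0.0197). The calls of 3 of these rises were lost in part: Tlr2 without OMV-SIRP 1, PBS 1, PBS 2 or PBS 3 (adjusted p = 0.0721 to 0.0957), Tlr7 without OMV-SIRP 1, OMV-SIRP 2 or PBS 2 (adjusted p = 0.0517 to 0.102) and Il12b without PBS 1 (adjusted p = 0.0635). The list's median of 0.31 turned to −0.09 without PBS 1 and to −0.32 with FPKM scaled to the same sum, where 8 fell. Tnf had 6.78, 35.7 and 17.7 FPKM in the OMV-SIRP libraries, against 3.69, 21.7 and 15.8 FPKM in the PBS libraries, and neither it nor the feedback inhibitor genes Nfkbia and Tnfaip3 passed the test (adjusted p = 0.632, 0.466 and 0.556).

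The NF-kB motif, searched on both strands, stood in 1 of 11 windows of the 15 lowest genes (9.09%), that of Il6, and in 0.411% of all windows. The Il6 window is shown with this motif and a Y box in capitals; they do not overlap.
Il6, chr5:30012864-30013163, plus strand: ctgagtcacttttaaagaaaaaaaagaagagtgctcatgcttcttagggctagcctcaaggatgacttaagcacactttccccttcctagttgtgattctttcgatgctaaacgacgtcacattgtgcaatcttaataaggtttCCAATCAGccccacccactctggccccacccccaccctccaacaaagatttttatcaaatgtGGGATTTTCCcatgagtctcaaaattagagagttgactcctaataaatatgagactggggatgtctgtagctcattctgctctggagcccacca

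Among the lowest genes were also Trib3, Sesn2 and Cth, which are known targets of the transcription factor Atf4 under amino acid shortage. No list of Atf4 targets was tested, so nothing is read from these genes about Atf4. Trib3 had 22.3, 6.79 and 30.9 FPKM in the OMV-SIRP libraries, against 86.5, 104 and 81.1 FPKM in the PBS libraries (log2 change -2.34 ± 0.43 (SE), adjusted p = 0.0116). Sesn2 had 11.5, 3.04 and 12.6 FPKM in the OMV-SIRP libraries, against 41.7, 42.8 and 46.2 FPKM in the PBS libraries (log2 change -2.34 ± 0.40 (SE), adjusted p = 0.00851). Both were lowest in OMV-SIRP 2, and no OMV-SIRP library reached a PBS library. Cth, a cysteine-making enzyme, changed by -2.36, adjusted p = 0.021, and lost its call without PBS 1 or PBS 2 (adjusted p = 0.0626 to 0.0662). Serpinb2, an inhibitor of plasminogen activators, had 2.14, 0 and 37.4 FPKM in the OMV-SIRP libraries, against 105, 144 and 199 FPKM in the PBS libraries (log2 change -4.88 ± 1.05 (SE), adjusted p = 0.0206), and lost its call without OMV-SIRP 1, PBS 1, PBS 2 or PBS 3 (adjusted p = 0.0516 to 0.0715). Prl2c2, a placental-type prolactin relative with near-identical copies, had 3.53, 2.24 and 46.2 FPKM in the OMV-SIRP libraries, against 131, 118 and 82.5 FPKM in the PBS libraries (log2 change -3.63 ± 0.82 (SE), adjusted p = 0.0254). Its call was lost without OMV-SIRP 1, OMV-SIRP 2, PBS 1 or PBS 2 (adjusted p = 0.0616 to 0.0841). In Serpinb2 and Prl2c2, OMV-SIRP 3 was the library nearest to PBS. The GTPase gene Rnd1 (-2.68, adjusted p = 0.0183) lost its call without PBS 1 or PBS 2 (adjusted p = 0.0505 to 0.0572), and the lipoprotein receptor gene Vldlr (-2.18, adjusted p = 0.0179) without PBS 1 (adjusted p = 0.0521).

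**Figure D4:**
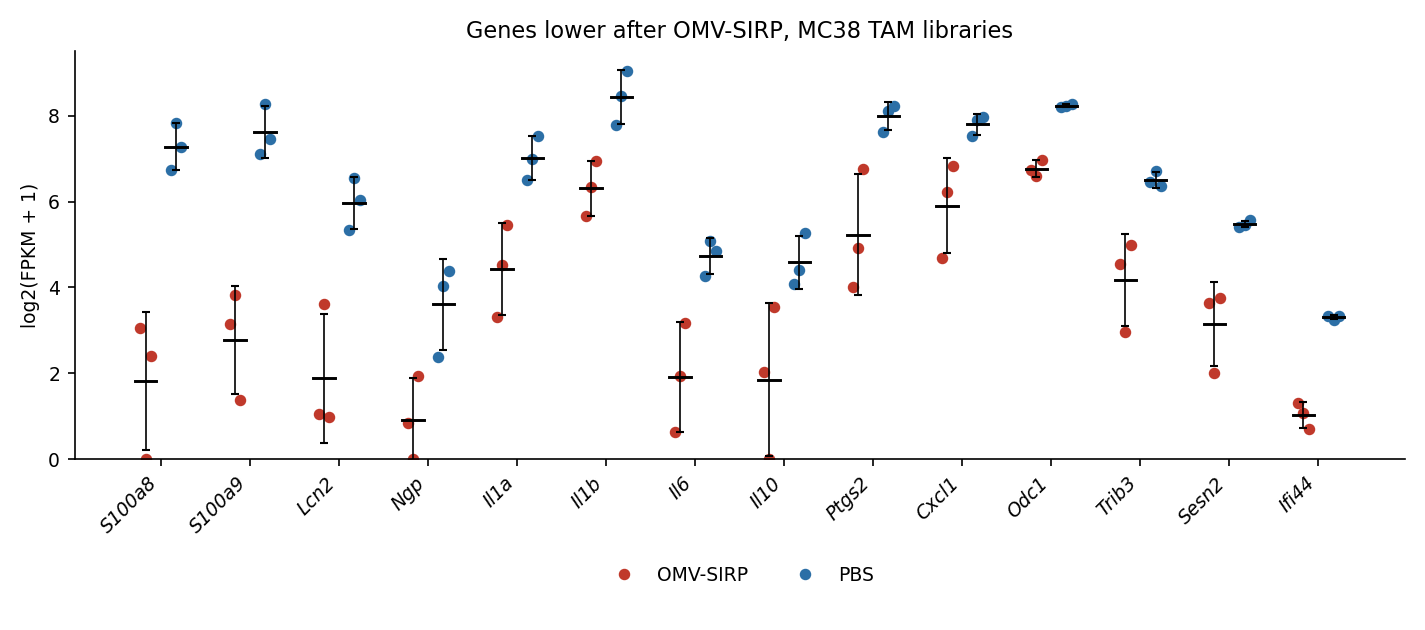
log2(FPKM + 1) of 14 genes lower after OMV-SIRP in the OMV-SIRP (left of each pair) and PBS (right) libraries; points are libraries, bars means and whiskers SD. S100a8, S100a9 and Lcn2 were lower in each OMV-SIRP library than in any PBS library, and for Il1a, Il1b, Il6 and Ptgs2 the third OMV-SIRP library came nearest to PBS.

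Of 20 interferon-stimulated genes tested 2 fell, against 3.49% of all genes, with a median of −0.30; 1 was higher and 7 lower at an unadjusted p under 0.05, and limma voom on recovered reads called 1 higher and 2 lower. Ifi44 had 1.49, 1.10 and 0.624 FPKM in the OMV-SIRP libraries, against 9.01, 8.53 and 9.12 FPKM in the PBS libraries (log2 change -2.28 ± 0.31 (SE), adjusted p = 0.00317). Oas3, a sensor of double-stranded RNA, had 4.31, 4.27 and 2.54 FPKM in the OMV-SIRP libraries, against 12.5, 9.80 and 8.04 FPKM in the PBS libraries (log2 change -1.25 ± 0.31 (SE), adjusted p = 0.0339), and did not pass without OMV-SIRP 1, OMV-SIRP 3, PBS 1 or PBS 2 (adjusted p = 0.0682 to 0.1). Isg15, a ubiquitin-like protein, had 30.2, 3.999 and 52.9 FPKM in the OMV-SIRP libraries, against 57.8, 89.8 and 57.98 FPKM in the PBS libraries and did not pass the test although the groups did not overlap (-1.74, adjusted p = 0.152). The lower count was 1 without OMV-SIRP 1, PBS 1 or PBS 2, 7 on total reads and 10 with FPKM scaled to the same sum. Irf7 did not pass (adjusted p = 0.305). Of 17 genes of the interferon gamma response 2 rose, against 7.4% of all genes. They were Cxcl9 and the transcription factor gene Irf8 (1.52, adjusted p = 0.0175), which lost its call without PBS 1 or PBS 2 (adjusted p = 0.0535 to 0.054). Without OMV-SIRP 3, 4 rose, and the list's median of 0.50 turned to −0.13 with FPKM scaled to the same sum. Of 12 genes of MHC class I and peptide loading 5 rose: H2-D1 (0.55, adjusted p = 0.00951), whose change was −0.18 with FPKM scaled to the same sum, the immunoproteasome genes Psmb8 (1.30, adjusted p = 0.00372), Psmb9 (1.18, adjusted p = 0.0264) and Psmb10 (1.75, adjusted p = 0.00624), and the peptide transporter gene Tap2 (0.77, adjusted p = 0.0493). The calls of Psmb9 and Tap2 were lost without PBS 1 or PBS 3 (adjusted p = 0.0538 to 0.0801) and without OMV-SIRP 2, OMV-SIRP 3, PBS 1 or PBS 2 (adjusted p = 0.08 to 0.129). Without PBS 1, 3 of the 12 rose, and 2 on total reads. The median of 0.51 turned to −0.20 with FPKM scaled to the same sum. Of 8 costimulation genes, limma called 0, with 1 higher at an unadjusted p under 0.05 and 0 called by limma voom; Cd86 had 13.1, 18.7 and 37.3 FPKM in the OMV-SIRP libraries, against 13.03, 17.5 and 16.95 FPKM in the PBS libraries (0.40, adjusted p = 0.451).

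Most glycolysis genes and the mitochondrially encoded genes tested rose, while 2 of 15 nuclear genes of the respiratory chain passed. Of 14 glycolysis genes 12 rose, with a median of 1.14; 6 passed with FPKM scaled to the same sum and 6 where the 6 libraries were fitted alone. Tpi1, triosephosphate isomerase, had 341, 282 and 206 FPKM in the OMV-SIRP libraries, against 98.9, 90.5 and 101 FPKM in the PBS libraries (log2 change 1.48 ± 0.18 (SE), adjusted p = 0.00182). The glucose transporter gene Slc2a1 (1.71, adjusted p = 0.00878), Pfkl (1.97, adjusted p = 0.00211) and Ldha, lactate dehydrogenase (0.90, adjusted p = 0.00906), rose as well. Ldha did not pass on total reads (0.52, adjusted p = 0.0515) or on the same sum (0.17, adjusted p = 0.519). Of 12 hypoxia genes 5 rose, among them Bnip3 (1.98, adjusted p = 0.00505) and the lactate exporter gene Slc16a3 (1.56, adjusted p = 0.0046), and 2 passed without OMV-SIRP 1, 2 without PBS 1 and 2 without PBS 2. Vegfa did not pass (adjusted p = 0.116).

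All 10 mitochondrially encoded genes tested rose, with a median of 2.39. The cytochrome oxidase gene mt-Co1 had 98595, 85716 and 61531 FPKM in the OMV-SIRP libraries, against 5837, 5118 and 8270.5 FPKM in the PBS libraries (log2 change 3.68 ± 0.20 (SE), adjusted p = 7.33e-05). No OMV-SIRP library came near the PBS libraries. In B16 TAM, mitochondrial genes took 15.2%, 19.7% and 17.9% of reads after PBS and 21.3%, 18.6% and 18.5% after OMV-SIRP. The low share in the MC38 PBS libraries was thus not seen in the B16 PBS libraries, and its cause was not tested. Mt-Cytb changed by 2.43, adjusted p = 0.00146 and mt-Nd1 by 2.09, adjusted p = 0.00211. Nuclear copies of mitochondrial sequence share reads with some of these genes, so their values are uncertain. Of 15 nuclear-encoded respiratory chain genes 2 rose, against 7.4% of all genes. They were Sdha (0.85, adjusted p = 0.0187) and Cox4i1 (0.76, adjusted p = 0.0259). Their calls were lost without PBS 1 (adjusted p = 0.0605) and without OMV-SIRP 1 or PBS 1 (adjusted p = 0.0701 to 0.0777). The list's median of 0.32 turned to −0.06 on total reads. Of 15 ribosomal protein genes limma called 0, with 5 higher at an unadjusted p under 0.05 and 2 called higher by limma voom; their median of 0.16 turned to −0.22 on total reads.

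Immediate-early genes, which respond to stimulation within minutes, rose in part. Of 16 immediate-early and heat-shock genes 10 rose, with a median of 1.34. Fos had 203, 336 and 133 FPKM in the OMV-SIRP libraries, against 11.5, 12.5 and 21.3 FPKM in the PBS libraries (log2 change 3.75 ± 0.33 (SE), adjusted p = 0.000423). Dusp1, a phosphatase that ends MAP kinase signalling, had 125, 218 and 116 FPKM in the OMV-SIRP libraries, against 12.3, 11.02 and 39.3 FPKM in the PBS libraries (log2 change 2.99 ± 0.43 (SE), adjusted p = 0.00421). Hspa1a, an inducible chaperone with a near-identical copy in Hspa1b, had 16.3, 33.7 and 21.5 FPKM in the OMV-SIRP libraries, against 0.492, 1.74 and 1.32 FPKM in the PBS libraries (log2 change 3.49 ± 0.30 (SE), adjusted p = 0.000423). The groups did not overlap in these 3 genes. Fosb (3.24, adjusted p = 0.000423), Jund (2.20, adjusted p = 0.00697), Zfp36 (2.30, adjusted p = 0.00382), Atf3 (1.35, adjusted p = 0.0151) and Junb (1.34, adjusted p = 0.00144) rose too, whereas Egr1 (adjusted p = 0.598), Ier2 (-0.22, adjusted p = 0.33) and Hsp90aa1 (-0.66, adjusted p = 0.106) did not pass.

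Markers of other cells were read as measured facts beside these changes. Of 17 T and NK cell genes 2 rose, the NK receptor gene Klrb1c (2.88, adjusted p = 0.0123) and the granzyme gene Gzmb, which had 102, 266 and 65.3 FPKM in the OMV-SIRP libraries, against 32.9, 30.5 and 29.9 FPKM in the PBS libraries (log2 change 1.93 ± 0.41 (SE), adjusted p = 0.0193) and lost its call without PBS 1 or PBS 2 (adjusted p = 0.053 to 0.0535). Cd3e had 6.30, 6.53 and 5.20 FPKM in the OMV-SIRP libraries, against 4.92, 3.89 and 15.1 FPKM in the PBS libraries and did not pass (adjusted p = 0.843). Without OMV-SIRP 3 or PBS 3, 4 of the 17 rose, and the list's median of 0.44 turned to −0.27 with FPKM scaled to the same sum. The share of all genes tested that rose was 7.4%. The list summed to 433 to 1005 FPKM after OMV-SIRP and 252 to 545 FPKM after PBS, so these ranges overlapped. Of 8 dendritic cell genes 2 rose, Itgax, the integrin CD11c that macrophages share (4.64, adjusted p = 0.000393), and the actin bundler gene Fscn1 (1.17, adjusted p = 0.0371); Fscn1 lost its call without PBS 1 or PBS 3 (adjusted p = 0.0885 to 0.0952). Without OMV-SIRP 1, 4 of the 8 rose. Ccr7, the receptor of migrating dendritic cells, had 37.4, 72.7 and 462 FPKM in the OMV-SIRP libraries, against 128, 175 and 205 FPKM in the PBS libraries, with OMV-SIRP 3 alone above the PBS libraries. Of 13 monocyte genes 5 rose, among them F13a1 (3.53, adjusted p = 0.0114), while Ly6c2, an antigen of inflammatory monocytes, did not pass (adjusted p = 0.688). Its values were 6.13, 16.2 and 1.23 FPKM after OMV-SIRP and 1.31, 2.57 and 10.3 FPKM after PBS, and overlapped.

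Of 12 fibroblast and matrix genes 6 rose, with a median of 1.33; the list summed to 357 to 703 FPKM after OMV-SIRP and 94.5 to 138 FPKM after PBS, mostly through Fn1 (3.89, adjusted p = 0.00348), fibronectin, which macrophages also make. Col1a2, a chain of type I collagen, had 16.4, 8.69 and 12.1 FPKM in the OMV-SIRP libraries, against 1.27, 0.947 and 0.403 FPKM in the PBS libraries (log2 change 2.83 ± 0.30 (SE), adjusted p = 0.000911). Sparc, a collagen-binding matrix protein, had 121, 96.4 and 104 FPKM in the OMV-SIRP libraries, against 34.4, 29.8 and 34.6 FPKM in the PBS libraries (log2 change 1.67 ± 0.15 (SE), adjusted p = 0.000423). Of the 12 log2 changes 11 were above 0. Pdgfra, another fibroblast marker, was at 1.64, 0.952 and 1.14 FPKM after OMV-SIRP. It had 2.28, 1.12 and 2.96 FPKM after PBS, and did not pass (adjusted p = 0.454). Of 5 epithelial genes tested 1 rose, Cdh1, which encodes E-cadherin (2.91, adjusted p = 0.00379). Other epithelial genes were low: Epcam had 0.27, 6.07 and 2.44 FPKM in the OMV-SIRP libraries, against 0, 3.10 and 3.95 FPKM in the PBS libraries, and Krt8 had 0.227, 0 and 0.358 FPKM in the OMV-SIRP libraries, against 0, 0 and 6.62 FPKM in the PBS libraries. Of 5 red cell genes limma called 0, with 1 higher at an unadjusted p under 0.05 and 0 called by limma voom, but 1 rose without OMV-SIRP 3 or without PBS 3, 2 with library weights and 4 with OMV-SIRP 2 and PBS 3 both left out. Their sums were 3586 to 10679 FPKM after OMV-SIRP and 2320.1 to 6837 FPKM after PBS. Of 7 B and plasma cell genes limma called 0, with 1 higher at an unadjusted p under 0.05 and 0 by limma voom. Of 19 cell cycle genes 1 rose, against 7.4% of all genes. It was Ccnb2 (1.27, adjusted p = 0.0296), which lost its call without OMV-SIRP 1, PBS 1, PBS 2 or PBS 3 (adjusted p = 0.0581 to 0.082).

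**Figure D5:**
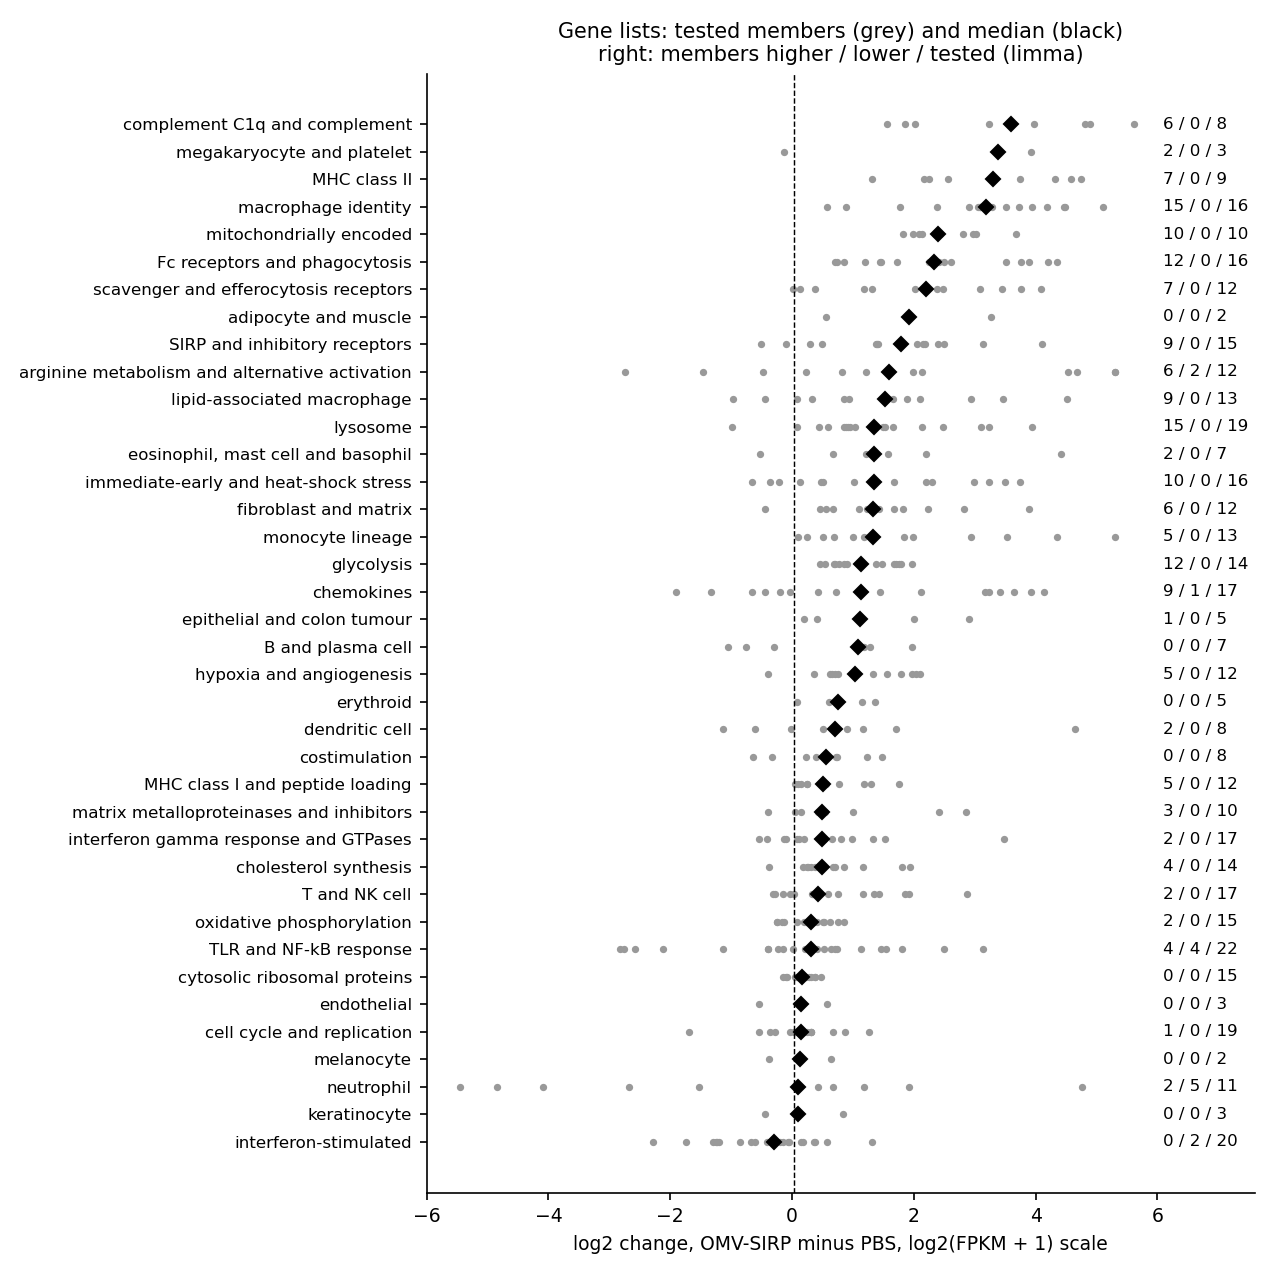
Log2 changes (OMV-SIRP minus PBS, x axis) of the tested members of 38 gene lists, as grey points, with each list's median as a black diamond; the dashed line is the median of all genes tested, 0.03, and the numbers at the right are members higher, lower and tested. Complement, MHC class II and macrophage identity had medians of 3.61, 3.31 and 3.19, and the interferon-stimulated list stood lowest at −0.30.

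The OMV-SIRP-G libraries, compared with the same PBS libraries, were set beside these values. Since both comparisons share their controls, values are given side by side only: log2 changes against PBS were 5.61 after OMV-SIRP and 5.01 ± 0.36 (SE) after OMV-SIRP-G for C1qa, 4.69 and 5.25 ± 0.55 for Arg1, 2.06 and 2.26 ± 0.33 for Sirpa, and -5.46 and -4.16 ± 0.68 for S100a8. Tested directly, OMV-SIRP differed from OMV-SIRP-G in 54 of 14089 genes (0.383%), 33 higher (0.234%) and 21 lower (0.149%) after OMV-SIRP. Mt-Co1 had 98595, 85716 and 61531 FPKM after OMV-SIRP and 22209.7, 22474 and 21062 FPKM after OMV-SIRP-G (log2 difference 1.88 ± 0.20 (SE), adjusted p = 0.00899). Gas6 had 21.4, 12.2 and 17.4 FPKM after OMV-SIRP and 2.86, 2.06 and 1.07 FPKM after OMV-SIRP-G (log2 difference 2.60 ± 0.33 (SE), adjusted p = 0.0199). Sparc was likewise higher after OMV-SIRP (1.55 ± 0.15 (SE), adjusted p = 0.00363) and Fscn1 lower (-1.82 ± 0.30 (SE), adjusted p = 0.0438).

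In TAM of the B16 melanoma model, the same treatment against PBS called 182 of 12542 genes (1.45%), 111 higher (0.885%) and 71 lower (0.566%), in a table scaled separately; the difference between the 2 tumour models was not tested. MHC class II was higher there too, with 7 of 9 genes past the threshold and a median of 0.84. The C1q chains did not pass the test there: C1qa had 979.9, 930.4 and 1427 FPKM after OMV-SIRP and 1380.0, 1099 and 1112 FPKM after PBS in B16 TAM (log2 change -0.12, adjusted p = 0.89). Adgre1 stood at 62.5, 61.9 and 54.3 FPKM after OMV-SIRP and 53.8, 60.98 and 62.8 FPKM after PBS there. Mrc1 was higher in B16 TAM by a smaller log2 change (0.70, adjusted p = 0.0293), with 43.96, 46.6 and 39.9 FPKM after OMV-SIRP and 21.6, 29.2 and 28.98 FPKM after PBS. Of the 16 macrophage identity genes 3 rose in B16 TAM, against 15 in MC38 TAM.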

How the data were processed

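The MC38 TAM libraries were read from 1 deposited table of FPKM for 57252 gene models, of which 21900 were protein coding and 1679 carried no Ensembl identifier. Extraction used TRIzol and library construction a NEBNext kit for mRNA, per the labels' protocols. The submitters' processing notes name the tools featureCounts 1.5.0-p3, HISAT2 2.0.5 and StringTie and the build GRCm38. No source used here gives their settings, the strand or the treatment of reads shared between genes, so near-identical and overlapping genes are uncertain. FPKM times gene length gave whole reads, within 0.05 reads, for 99.95% to 100% of values, and showed that the FPKM deposited by the authors already carried a scaling between libraries.

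Genes with FPKM of at least 1 in at least 3 of the 9 MC38 libraries were tested on log2(FPKM + 1) with limma 3.58.1 (lmFit, eBayes with trend and robust; statmod 1.5.0, R 4.3.3). All 9 libraries entered the fit, so the third group shared in the estimate of spread; p-values are two-sided and Benjamini-Hochberg adjusted over 14089 genes. A gene at 0 in every PBS library passed the FPKM filter only through the other groups, so it could not be lower after OMV-SIRP. B16 TAM were fitted in the same way. Data were simulated with 200 genes changed, all with a mean log2(FPKM + 1) above 3. The test recovered 82% of changes of 2 and 95% of changes of 3 on the log2 scale, with 4.32% false calls. Noise was drawn independently for each gene and library. Changes of genes with low FPKM and shifts shared across a library were thus not covered. Named were the 15 highest and 15 lowest protein-coding genes past the threshold whose groups did not overlap and whose mean FPKM reached 5, the 4 members of each of 38 gene lists with the lowest adjusted p, and 15 fixed genes; other list members are given by value, and a few genes are not reported here. The members, the lists and the rule were chosen with earlier results of these data known. Where a gene was at 0 in PBS, a bound used a floor of 3 reads per library, which covers counting error only. Alternatives were another pseudocount, no filter, 3 other scalings, the 6 libraries alone, a replicate block, plain eBayes, library weights, limma voom on recovered reads, and libraries left out.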

Additional observations from a re-analysis of the deposited data

Results flagged for a closer look

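Of 143 named genes tested in both tumour models, 9 moved one way in every OMV-SIRP library against every PBS library in MC38 TAM and the opposite way in B16 TAM (6.29%), against 283 of all 11380 genes tested in both (2.49%). The named genes were in part chosen for groups that did not overlap in MC38 TAM, so nothing is read from the higher share. The 2 tables were scaled separately, so the difference between the models was not tested. Cytotoxic and NK cell genes made up 4 of the 9. These were named as the 4 T and NK list members with the lowest adjusted p in MC38 TAM, so nothing is read from that count. Gzmb had a log2 change of 1.93 in MC38 TAM, and in B16 TAM it had 17.6, 24.5 and 23.1 FPKM after OMV-SIRP and 60.4, 62.7 and 72.2 FPKM after PBS (log2 change -1.55, adjusted p = 0.000444). Prf1, which encodes perforin, changed by 1.44 in MC38 TAM, where it did not pass, and in B16 TAM had 11.1, 8.98 and 5.09 FPKM after OMV-SIRP and 32.7, 29.1 and 28.7 FPKM after PBS (log2 change -1.79, adjusted p = 0.00555). Klrb1c changed by 2.88 in MC38 TAM and by -1.51, adjusted p = 0.0808 in B16 TAM, and Ncr1, an NK cell receptor gene, by 1.86 in MC38 TAM, where it did not pass, and by -1.85, adjusted p = 0.0292 in B16 TAM. T and NK cell genes as a list had 2 of 17 higher in MC38 TAM, where 7.4% of all genes tested were higher. In B16 TAM 13 of 17 were lower, where 0.566% of all genes tested were lower. With FPKM scaled to the same sum, the list's median in MC38 TAM was −0.27.

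Il1b fell in MC38 TAM (-2.12) and in B16 TAM had 16.4, 18.99 and 19.6 FPKM after OMV-SIRP and 9.49, 7.42 and 7.18 FPKM after PBS (log2 change 1.10, adjusted p = 0.0183). Fos and Fosb rose in MC38 TAM (3.75 and 3.24), while their B16 TAM changes, -0.27, adjusted p = 0.406 and -0.35, adjusted p = 0.51, did not pass. Bnip3 (1.98) and Sdha (0.85) rose in MC38 TAM, and in B16 TAM their changes, -0.54, adjusted p = 0.131 and -0.20, adjusted p = 0.559, did not pass.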

How the results depend on the processing

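Of 1534 genes past the threshold, all kept their direction in each alternative that fitted them except with FPKM scaled to the same sum in each library, where 1485 did. Counts moved more. They were 762 (573 higher, 189 lower) with no filter, where 29189 genes were tested, 3907 (572 and 3335) on that same sum and 2332 (697 and 1635) on total reads. With the 6 libraries alone they were 334 (273 and 61), and 39 calls of genes named in the text ended. That setting leaves fewer libraries for the spread. It also drops the OMV-SIRP-G libraries, which correlated more closely than those of either other group. Library weights gave 2400 (1580 and 820). Leaving out 1 library gave 704 to 1963 calls, 542 to 1232 higher and 162 to 731 lower, with the fewest without OMV-SIRP 1 and the most without OMV-SIRP 3. With OMV-SIRP 2 and PBS 3 both left out, a setting chosen after seeing the data, 2048 genes passed. Replicate numbers did not pair the libraries, with correlations of deviations of 0.05, −0.03 and −0.01 for equal numbers. A replicate block gave 1106 calls, 316 of them lower. The pseudocount of 0.1, plain eBayes, limma voom and scaling to reads other than mitochondrial, the last also chosen after seeing the data, gave 1448, 1225, 1629 and 1556; voom ended the calls of Clec4a2, Fcgr1 and Fgr among others. Of the named log2 changes, those of Cd14, Cd47, Cd86 and H2-D1 turned to −0.15, −0.42, −0.31 and −0.18 on that same sum, that of Cd47 to −0.072 on total reads, and that of Cd86 ranged over −0.00208 to 0.717 with 1 library left out. The cause was not tested. On simulated data, 82% of changes of 2 on the log2 scale were recovered, among genes that were not low in FPKM. A change that did not pass is therefore not shown to be absent.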

Other observations

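A few lists lay outside the account above. Of 7 eosinophil, mast cell and basophil genes tested 2 rose, Siglecf, a sialic acid receptor of eosinophils and some macrophages (2.19, adjusted p = 0.0163), whose call was lost without OMV-SIRP 1 or PBS 1 (adjusted p = 0.0524 to 0.0599), and the ribonuclease gene Ear2, which has near-identical relatives. Ear2 had 23.3, 43.4 and 8.07 FPKM after OMV-SIRP and 0 in every PBS library, at least 108-fold higher against a floor of 3 reads per library. It passed the FPKM filter only through the OMV-SIRP and OMV-SIRP-G groups, so nothing is read from the count. The eosinophil peroxidase gene Epx and the mast cell genes Cpa3 and Tpsb2 were at 0 in all 6 libraries. Of 7 platelet genes listed 3 were tested and 2 rose, Pf4 and Ppbp. Ppbp had 6.56, 29.99 and 3.82 FPKM after OMV-SIRP and 0 in every PBS library. It too passed the filter only through the other groups, so nothing is read from the count. The integrin gene Itga2b, which marks megakaryocytes, stood at 1.51, 1.42 and 0.97 FPKM after OMV-SIRP and 1.08, 1.66 and 1.80 FPKM after PBS.

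Of 10 matrix metalloproteinase and inhibitor genes tested 3 rose. Mmp12, the macrophage elastase, had 194, 299.6 and 67.5 FPKM in the OMV-SIRP libraries, against 15.3, 22.5 and 26.1 FPKM in the PBS libraries (log2 change 2.87 ± 0.45 (SE), adjusted p = 0.0064). The count was 1 without OMV-SIRP 1, PBS 2 or PBS 3. Of 14 cholesterol synthesis genes tested 4 rose, all of whose calls were lost without OMV-SIRP 1 or without PBS 1, while 7 rose without OMV-SIRP 2. Their median of 0.49 turned to −0.13 with FPKM scaled to the same sum.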
